A study of Gallus gallus with 6 samples.

Results

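*PPARG* (gene12614), *FABP5* (gene4418) and *ACACB* (gene14024) are 3 genes of lipid metabolism, taken by gene number from the 17992 genes measured in chicken small yellow follicles. Small yellow follicles are the growing ovarian follicles from which the next follicle enters the preovulatory hierarchy. RNA of 6 single follicles was sequenced, 2 from each of 3 wild-type Jining Bairi hens of 30 weeks that were killed in mid-sequence just after laying. T4, T5 and T6 carry the submitters' label of lower *FSHR* expression, and T1, T2 and T3 that of higher *FSHR* expression, *FSHR* being the receptor of follicle-stimulating hormone. The paper pairs T4 with T1 (hen 1), T5 with T2 (hen 2) and T6 with T3 (hen 3). The labels go against the measured gene. *FSHR* (gene4883) had 46.4, 18.9 and 27.8 FPKM in T4, T5 and T6, against 11.9, 13.1 and 13.9 FPKM in T1, T2 and T3. FPKM is the number of fragments scaled to the length of the transcript and the size of the library. The libraries labelled lower thus had the higher *FSHR* level in every hen, and the follicles are called by their T numbers below. By the paper's qRT-PCR, *FSHR* was also far higher in T4 than T1. In that assay T5 was only slightly above T2, and T6 and T3 were nearly level. Each library is 1 whole follicle with oocyte, granulosa and theca, so fewer cells of a type and less RNA per cell cannot be told apart.

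*PPARG* encodes the nuclear receptor PPARγ, which binds DNA with a retinoid X receptor and, when bound by fatty acids or their derivatives, raises the transcription of genes of fatty acid uptake and storage. FABP5 is a small cytosolic protein that carries fatty acids and, in mammals, can deliver them to PPAR receptors in the nucleus. Acetyl-CoA carboxylase makes malonyl-CoA, the building block of fatty acid synthesis. Its second form, encoded by *ACACB*, sits at mitochondria in mammals, where malonyl-CoA restrains the entry of fatty acids for oxidation. In the bird ovary, yolk lipid is made in the liver and taken up by the oocyte, while granulosa and theca cells handle lipid for steroid synthesis.

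The 3 genes lie on the plus strand of separate chromosomes, at positions given as deposited, whose genome build is in conflict between the sources used here. *PPARG* is at 4826401 to 4880628 of chromosome 12 with a transcript of 5130 bases. *FABP5* is at 121148611 to 121152772 of chromosome 2 with a transcript of 405 bases. *ACACB* is at 6649536 to 6670826 of chromosome 15 with a transcript of 8512 bases. Of the other genes in the table, 0 overlapped any of them. The name *ACACB* rests on a description of the gene as acetyl-CoA carboxylase 2, from a predicted model. The study quantified *PPARG* by qRT-PCR too, and its primers, shown because they set which part of the transcript that assay read, are both 18 bases long.

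PPARG forward: tccttcccgctgaccaaa
PPARG reverse: tcctgcactgcctccaca

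*PPARG*, the receptor, had 69.6, 21.9 and 41.0 FPKM in T4, T5 and T6, against 12.1, 8.49 and 10.4 FPKM in T1, T2 and T3. The groups did not overlap, T4 to T6 all lying above T1 to T3, as for 5.94% of the 12381 genes tested, those that reached 1 FPKM in 3 or more follicles. The level averaged 44.2 ± 24.0 FPKM in T4 to T6 and 10.3 ± 1.83 FPKM in T1 to T3 (SD, n = 3 each). T1, T2 and T3 lay close together, the highest being 1.43 times the lowest, while T4 to T6 spread 3.18-fold. In normalized counts, which are fragment estimates that the authors put on a common scale, *PPARG* had 2629, 975 and 1680 in T4, T5 and T6, against 447, 410 and 416 in T1, T2 and T3. These rest on 957 to 2595 fragments in T4 to T6 and 418 to 480 fragments in T1 to T3. Ordered from low to high, T2, T3 and T1 came first, and the 95% Poisson intervals of neighbours among them overlapped. T5, T6 and T4 followed, each apart from the one below it. These intervals cover counting error only. *PPARG* stood above 84.4%, 63.2% and 75.5% of the genes at 1 FPKM or more in T4, T5 and T6, and above 45.1%, 37.0% and 40.8% of them in T1, T2 and T3.

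*FABP5*, the fatty acid carrier, had 17.8, 7.69 and 46.3 FPKM in T4, T5 and T6, against 3.84, 1.21 and 15.8 FPKM in T1, T2 and T3. The groups overlapped, since T3 lay above T5, but in each hen the follicle of T4 to T6 was the higher. Hen 3 had the highest level and hen 2 the lowest in both groups, so the hens differed more than they did for *PPARG*. The mean was 23.9 ± 19.997 FPKM in T4 to T6 and 6.96 ± 7.80 FPKM in T1 to T3 (SD, n = 3 each). The normalized counts were 56.7, 24.5 and 139 in T4, T5 and T6, against 12.1, 3.92 and 51.1 in T1, T2 and T3. The short transcript drew few fragments, 56, 24 and 138 in T4, T5 and T6, against 13, 4 and 53 in T1, T2 and T3. With so few, the intervals of T2 and T1, of T1 and T5, and of T3 and T4 overlapped, and T6 alone stood above every other follicle. *FABP5* ranged widely among expressed genes, above 33.5% to 77.9% of them in T4 to T6 and above 2.51% to 53.0% of them in T1 to T3.

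*ACACB*, the carboxylase, had 6.24, 2.48 and 3.48 FPKM in T4, T5 and T6, against 1.67, 2.50 and 3.41 FPKM in T1, T2 and T3. T4 was the highest and T1 the lowest of the 6 follicles, and both belong to hen 1. The other 4 follicles kept to their hen, T5 beside T2 and T6 beside T3, with overlapping intervals in each of these pairs. The mean was 4.06 ± 1.95 FPKM in T4 to T6 and 2.53 ± 0.870 FPKM in T1 to T3 (SD, n = 3 each), with overlap. The normalized counts were 754, 299.6 and 419 in T4, T5 and T6, against 202, 301 and 414 in T1, T2 and T3. The long transcript gave 294 to 744 fragments in T4 to T6 and 217 to 429 in T1 to T3, more than for *FABP5* although the level per length was mostly lower. *ACACB* stood above at most 28.9% of expressed genes in T4 to T6 and above at most 15.8% of them in T1 to T3.

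**Figure D1:**
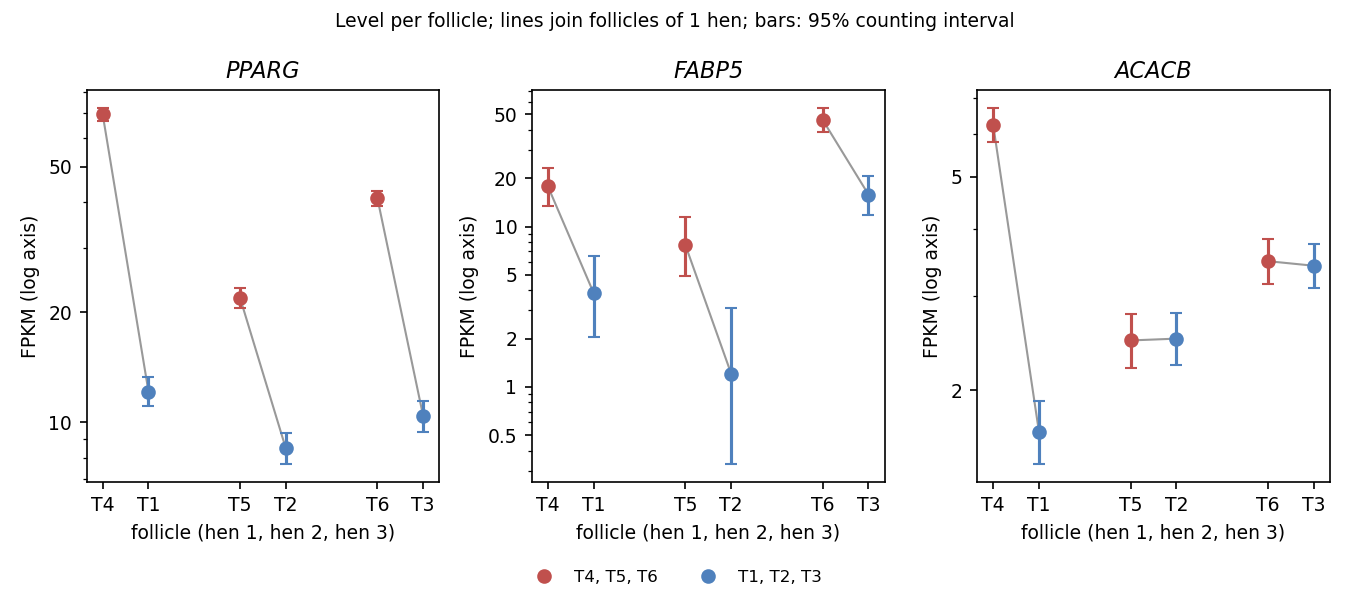
FPKM (log axis) of *PPARG*, *FABP5* and *ACACB* in the 6 follicles, with T4, T5 and T6 in red and T1, T2 and T3 in blue. Lines join the follicles of 1 hen and bars are 95% Poisson counting intervals. The red point is the higher one in all 3 hens for *PPARG* and *FABP5*, whereas for *ACACB* the points of hens 2 and 3 are level and those of hen 1 are 6.24 and 1.67 FPKM.

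Compared per length, the receptor was the most abundant of the 3 transcripts in 4 follicles, and *FABP5* was in T6 and T3. The FPKM of *PPARG* was 3.91, 2.85 and 0.887 times that of *FABP5* in T4, T5 and T6, against 3.16, 7.01 and 0.656 times in T1, T2 and T3. Relative to *ACACB*, the FPKM of *PPARG* was 11.2, 8.85 and 11.8 times as high in T4, T5 and T6, against 7.26, 3.40 and 3.05 times in T1, T2 and T3. *FABP5* exceeded *ACACB* in all follicles but T2, where it had 0.486 times the FPKM of *ACACB*.

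Within each hen, 1 follicle was set against 1 follicle, which allows no test of the pair. Ratios are log2 of FPKM + 0.5, and the interval given is an exact binomial one on the fold of normalized counts. The *PPARG* log2 ratio was 2.47 for T4 over T1, 1.32 for T5 over T2 and 1.93 for T6 over T3. In normalized counts *PPARG* was 5.88-fold higher in T4 than T1 (95% interval 5.34 to 6.50), 2.38-fold higher in T5 than T2 (2.12 to 2.67) and 4.04-fold higher in T6 than T3 (3.63 to 4.51). These 3 intervals do not overlap each other, so the 3 pairs differed by more than counting error in the size of the ratio. With 1 pair per hen, a difference between hens and one between the follicles taken cannot be told apart. The *FABP5* log2 ratio was 2.08 for T4 over T1, 2.26 for T5 over T2 and 1.52 for T6 over T3. Its folds were 4.69 (2.53 to 9.35), 6.23 (2.14 to 24.7) and 2.73 (1.98 to 3.82) in hens 1, 2 and 3, with intervals that all overlap, and the order of the hens is not resolved at this depth. The *ACACB* log2 ratio was 1.63 for T4 over T1, -0.01 for T5 over T2 and 0.02 for T6 over T3. Its folds were 3.73 (3.20 to 4.36) in hen 1, 0.995 (0.845 to 1.17) in hen 2 and 1.01 (0.884 to 1.16) in hen 3. The intervals of hens 2 and 3 include an equal level and lie wholly below those of *PPARG* in the same hens.

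**Figure D2:**
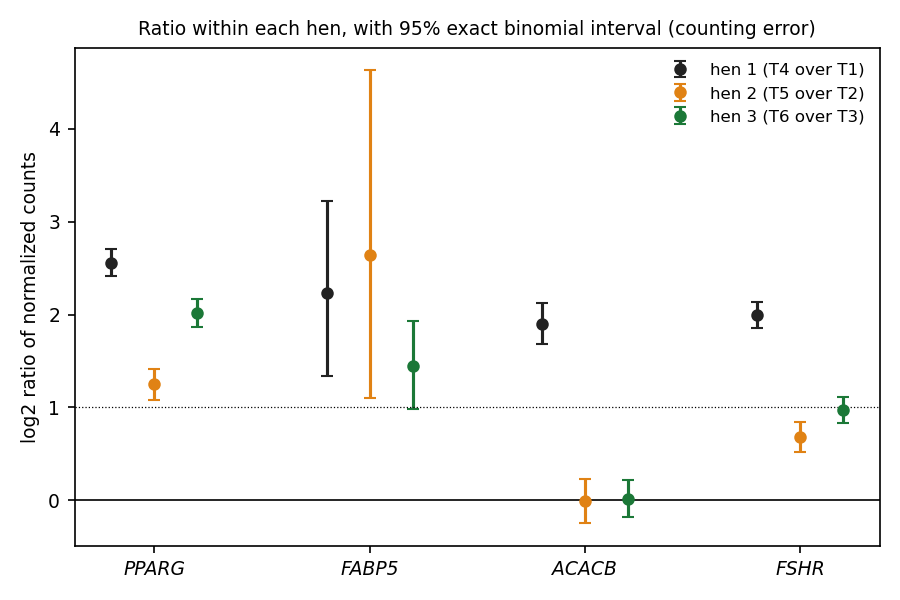
Log2 ratio of normalized counts within each hen for *PPARG*, *FABP5*, *ACACB* and *FSHR*, with 95% exact binomial intervals (counting error only); the dotted line marks a 2-fold ratio. *PPARG* and *FABP5* lie above 1 in each hen, the interval of *FABP5* in hen 3 reaching 0.98, while *ACACB* is at -0.01 in hen 2 and 0.02 in hen 3.

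A ratio of at least 2-fold higher was found for all 3 genes in hen 1, where 5.38% of 12688 genes reached it. In hens 2 and 3 it was found for *PPARG* and *FABP5* but not *ACACB*, against 1.46% of 12585 genes and 2.61% of 12706 genes. *PPARG* and *FABP5* were thus 2 of the 34 genes, 0.275% of 12381, at least 2-fold higher in all 3 hens. Of all genes, 14.7% were higher by any amount in all 3 hens. Counted from the largest ratio, *PPARG* was at place 70 in hen 1, 111 in hen 2 and 63 in hen 3, and *FABP5* at place 126, 34 and 118. In normalized counts with a pseudocount of 10, which weighs down low counts, the *FABP5* log2 ratio was 1.59, 1.31 and 1.29 in hens 1, 2 and 3. *ACACB* was at place 229 in hen 1 and in the middle of all genes, at places 6140 and 6219, in hens 2 and 3. The names of the 3 genes were read from the study's list of genes that changed between T1 and T4, so their direction in hen 1 is not independent evidence. That list did not use hens 2 and 3. The genes were chosen with earlier results of these data known, however, so these hens are not independent evidence either.

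**Figure D3:**
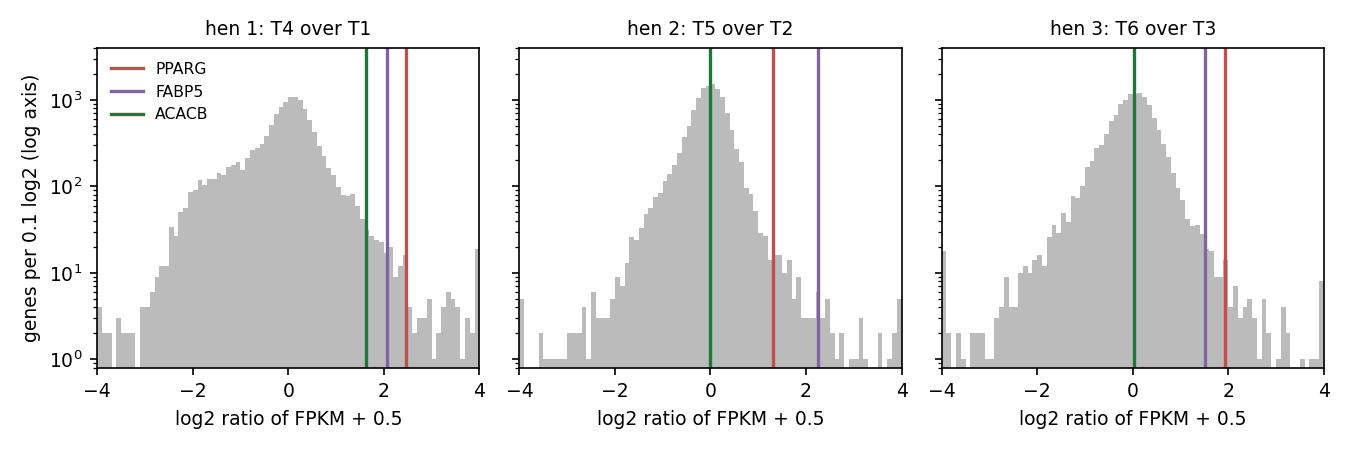
Distribution of the log2 ratio of FPKM + 0.5 over all genes with at least 1 FPKM in either follicle of a hen, as genes per 0.1 log2 (log axis), with the 3 genes as vertical lines and ratios beyond 4 in either direction counted in the end bars. *PPARG* and *FABP5* lie in the upper tail of each hen, and *ACACB* at 1.63 in hen 1 but at the centre in hens 2 and 3.

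Over the 3 hens, limma with hen as a block gave *PPARG* a mean log2 ratio of 1.91 (standard error 0.25, n = 3 hens, adjusted p = 0.774). The mean for *FABP5* was 1.95 with a standard error of 0.22 over 3 hens, and limma gave an adjusted p = 0.774. The unadjusted limma p was 0.00040 for *PPARG* and 0.00018 for *FABP5*. By this p they were at place 3 and place 2 of 12381 genes, and both were higher in 3 of 3 hens. The genes were chosen with earlier results of these data known, so these places are not evidence for them. For *ACACB*, higher in 2 of 3 hens, the mean was 0.55 with a standard error of 0.40 and an adjusted p = 0.788 in the same limma fit. None of the 3 passed the limit of 0.05 for an adjusted p, nor did any other gene: limma called 0 genes (0.0%), with 708 at an unadjusted p under the same limit. The exact two-sided sign-flip test over 3 pairs, whose smallest possible p is 0.25, gave 0.25 for *PPARG* and *FABP5* and 0.5 for *ACACB*.

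T4 stood apart from the other libraries, with a rank correlation of 0.866 to 0.932 with them over genes, against 0.943 to 0.977 among the others. Without hen 1, limma called 205 of 12381 genes higher (1.66%), *PPARG* and *FABP5* among them. *PPARG* then had a log2 ratio of 1.62 (adjusted p = 4.0e-12, limma) and *FABP5* of 1.89 (adjusted p = 8.0e-14, limma), while *ACACB* was at 0.01 (adjusted p = 0.996, limma). These adjusted p-values rest on 2 hens and turn on how limma estimates the spread. With its robust option off, which was tried after the data were seen, they were 0.0034 for *PPARG* and 0.0027 for *FABP5*. With its trend option off as well, they were 0.0646 for *PPARG* and 0.0476 for *FABP5*.

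Granulosa markers were mostly higher in T4 to T6 in each hen, as were most genes named here. Theca markers reached 2-fold lower in hen 1 alone. The markers were named through the same list of genes changed between T1 and T4, so their 2-fold counts in hen 1 were set by that choice. Of 14 granulosa markers, 7 were matched to a gene: *FSHR*, the inhibin subunit *INHA*, the steroidogenic factor *NR5A1*, the egg-coat genes *ZP3* and *ZPD*, *GATA4* and *WNT4*. Of the 7, 7 were higher in hen 1, 5 in hen 2 and 6 in hen 3. Of all 301 genes named through that list, 217, 235 and 204 were higher in hens 1, 2 and 3. Of the 12381 genes tested, 6217, 5901 and 6414 were. The log2 ratio was -0.67 for *WNT4* in hen 2, and for *GATA4* it was -0.04 in hen 2 and -0.07 in hen 3. The summed level of the 7 granulosa markers was 14270, 5883 and 5845 FPKM in T4, T5 and T6, against 2459, 3025 and 2300 FPKM in T1, T2 and T3. Most of it came from *ZP3*. The median log2 ratio of the 7 was 1.93, 0.51 and 1.29 in hens 1, 2 and 3, and *PPARG* lay above this median in each hen. *INHA*, at 4.97, 2.44 and 6.23, lay above *PPARG* in each hen, and *FSHR*, *NR5A1* and *GATA4* lay below it in each hen. *ZPD* and *WNT4* lay above *PPARG* in some hens and below it in others. *ZP3* lay below *PPARG* in hens 2 and 3 and was nearly level with it in hen 1 (2.49 beside 2.47). Of 12 theca and connective tissue markers, 8 were matched, and their sum was 1064, 4289 and 6266 FPKM in T4, T5 and T6, against 5624, 4155 and 7095 FPKM in T1, T2 and T3. All 8 were at least 2-fold lower in T4 than T1, and 0 of them were so in hens 2 and 3, against 13.1%, 2.88% and 3.38% of the 12381 genes tested in hens 1, 2 and 3. Their median log2 ratio was -0.03 in hen 2 and -0.23 in hen 3. The 2 endothelial markers matched of 9 summed to 7.30, 43.5 and 42.1 FPKM in T4, T5 and T6, against 35.1, 38.1 and 58.6 FPKM in T1, T2 and T3. The 2 macrophage and leukocyte markers matched of 10 summed to 0.718, 5.16 and 23.8 FPKM in T4, T5 and T6, against 5.48, 7.59 and 54.1 FPKM in T1, T2 and T3. This sum was highest in hen 3, and in each hen it was lower in the follicle of T4 to T6. Most of it came from *MPEG1* in every follicle. The other marker, *CD4*, was lower in T4 than T1 and in T6 than T3. In hen 2 it went the other way, with 2.02 FPKM in T5 and 1.63 FPKM in T2. The nerve marker *SOX10*, the only one of 6 matched, had 0.366 to 3.79 FPKM in T4 to T6 and 2.99 to 5.40 FPKM in T1 to T3. No matched marker was at 0, and no smooth muscle or adipocyte marker was matched. The part of cell content in the ratios of the 3 genes was not tested.

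Set against *FSHR*, which granulosa cells carry, the FPKM of *PPARG* was 1.50, 1.16 and 1.47 times that of *FSHR* in T4, T5 and T6, against 1.02, 0.647 and 0.748 times in T1, T2 and T3. In FPKM *PPARG* was thus higher in T4 to T6 per *FSHR* transcript as well, by 1.46-fold, 1.79-fold and 1.97-fold in hens 1, 2 and 3. In normalized counts this fold was smaller in hen 2. The direction depends on the marker chosen. Per *NR5A1* or *GATA4* transcript *PPARG* was also higher in T4 to T6 in each hen, but per *INHA* transcript it was lower in each hen. Whether granulosa content accounts for the *PPARG* ratio was not tested. *FABP5* was 0.384, 0.407 and 1.66 times *FSHR* in T4, T5 and T6, against 0.324, 0.0923 and 1.14 times in T1, T2 and T3. *ACACB* was 0.135, 0.131 and 0.125 times *FSHR* in T4, T5 and T6, against 0.141, 0.190 and 0.246 times in T1, T2 and T3. Per *FSHR* transcript *ACACB* was thus lower in T5 and T6 than in T2 and T3. In hen 1 the difference was not resolved, the fold intervals being 3.20 to 4.36 for *ACACB* and 3.63 to 4.41 for *FSHR*. Over the 6 follicles the log2 level of *PPARG* had a Pearson r of 0.97 with that of *FSHR*, and 0.99 over the 4 follicles without hen 1. The r with *FSHR* was 0.65 for *FABP5* and 0.87 for *ACACB*, the last being 0.40 without hen 1. Between the genes themselves r was 0.71 for *PPARG* with *FABP5*, 0.75 for *PPARG* with *ACACB* and 0.61 for *FABP5* with *ACACB* (n = 6 follicles). Over the 4 follicles without hen 1 these values were 0.76, 0.36 and 0.84. These values are descriptions, since all genes were read from the same 6 libraries and the follicles share hens.

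Of 246 further genes on lists of PPAR signaling, fatty acid, glycerolipid, cholesterol and retinoid metabolism and lipoprotein transport, 20 were matched. Of these 20, 19 were at least 2-fold higher in T4 than T1, but 3 in T5 than T2 and 2 in T6 than T3, and 1 was at least 2-fold lower in T6 than T3. Of all 301 named genes, 202, 27 and 48 were at least 2-fold higher in hens 1, 2 and 3. The median log2 ratio of the 20 was 1.42, 0.20 and 0.19 in hens 1, 2 and 3, against 0.003, -0.02 and 0.02 over the 12381 genes tested. The names come from the part of the T1 and T4 list that was read, so the count for hen 1 was set by that choice. The named genes leaned to those higher in T4. In hen 1 a fall of 2-fold or more was found for 78 of the 301, whereas 1624 of the 12381 genes tested fell so far. The 301 named genes had medians of 1.26, 0.26 and 0.33. Of the 20, 18 passed the filter on low values, and limma called 0 of them over 3 hens, with 6 at an unadjusted p under the limit, against 108 of the 284 named genes tested.

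The PPAR signaling list held 3 matched genes besides the receptor and the fatty acid carrier. *APOA1*, the main protein of high-density lipoprotein, had 3437, 2200 and 2725 FPKM in T4, T5 and T6, against 1461, 976 and 4081 FPKM in T1, T2 and T3, higher in hens 1 and 2 and lower in hen 3. *PLTP*, which moves phospholipid between lipoproteins, had 107, 47.7 and 73.5 FPKM in T4, T5 and T6, against 23.6, 31.4 and 65.0 FPKM in T1, T2 and T3. For *PCK2*, the mitochondrial form of phosphoenolpyruvate carboxykinase, the log2 ratio was 1.03 in hen 1, 0.09 in hen 2 and 0.27 in hen 3.

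Of the 43 genes of fatty acid synthesis and elongation, *ACACB* alone was matched. From the list of fatty acid oxidation and carnitine transport, *PDK4* and *SLC25A29* were matched, and a part of either in fatty acid oxidation was not tested. *PDK4*, a kinase that turns off pyruvate dehydrogenase and so spares glucose, had 14.4, 8.53 and 6.75 FPKM in T4, T5 and T6, against 4.70, 3.51 and 21.4 FPKM in T1, T2 and T3. It was the gene at least 2-fold lower in hen 3, with a log2 ratio of -1.60 beside 1.52 and 1.17 in hens 1 and 2. *SLC25A29*, a carrier of the mitochondrial inner membrane, was at 1.44, 0.08 and -0.19 in hens 1, 2 and 3 on the log2 scale, that is apart in hen 1 and nearly level in the others, as *ACACB* was. The squalene synthase gene *FDFT1*, the single match for cholesterol synthesis, had log2 ratios of 0.02, -0.48 and 0.21. It had 476 FPKM in T4 and 471 FPKM in T1, although the names came from genes listed as changed between these follicles. This conflict was not resolved.

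Among glycerolipid genes, log2 ratios in hens 1, 2 and 3 were 2.19, 0.74 and 0.39 for the patatin-like phospholipase gene *PNPLA1*, 1.01, -0.22 and 0.57 for the acyltransferase gene *AGPAT2*, and 1.28, -0.28 and 0.67 for the endothelial lipase gene *LIPG*. *ENPP7* (2.90, -0.23 and 1.84) and *PLPPR4* (1.11, 0.13 and 0.15) did not pass the filter on low values. On the list of lipoprotein and sterol transport, the lysosomal cholesterol carrier *NPC2* had 1.96, 0.27 and 0.70, *STARD3NL* 1.41, 0.76 and 0.46, and *OSBPL3* 1.36, 0.07 and -0.13. The receptors of the lipoprotein receptor family had 2.39, 0.55 and -0.24 for *LRP4* and 1.61, 0.36 and 0.75 for *LRP12*. All of these genes were higher in hen 1, and none reached 2-fold in hen 2.

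Retinoid genes stood out by 1 member. *STRA6*, the membrane receptor through which cells take up retinol, had 36.3, 9.65 and 14.9 FPKM in T4, T5 and T6, against 0.515, 0.548 and 4.58 FPKM in T1, T2 and T3. Its log2 ratio was 5.18, 3.28 and 1.61 in hens 1, 2 and 3. T1 and T2 lay under 1 FPKM, near the pseudocount of 0.5, so the size of the ratio in hens 1 and 2 is uncertain. No counting interval was computed for *STRA6*. Besides *PPARG* and *FABP5*, it was the single matched lipid gene at least 2-fold higher in all 3 hens. Of the 301 named genes, 14 were so. Retinoic acid made from retinol is a ligand of the retinoid receptors, and in mammals FABP5 can carry it. The genes that break down or reduce retinoids did not share this pattern, with log2 ratios of 1.86, -0.60 and -0.10 for *CYP26A1*, 1.35, 0.05 and -0.77 for *CYP26B1* and 1.26, 0.51 and -0.85 for *DHRS3*.

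**Figure D4:**
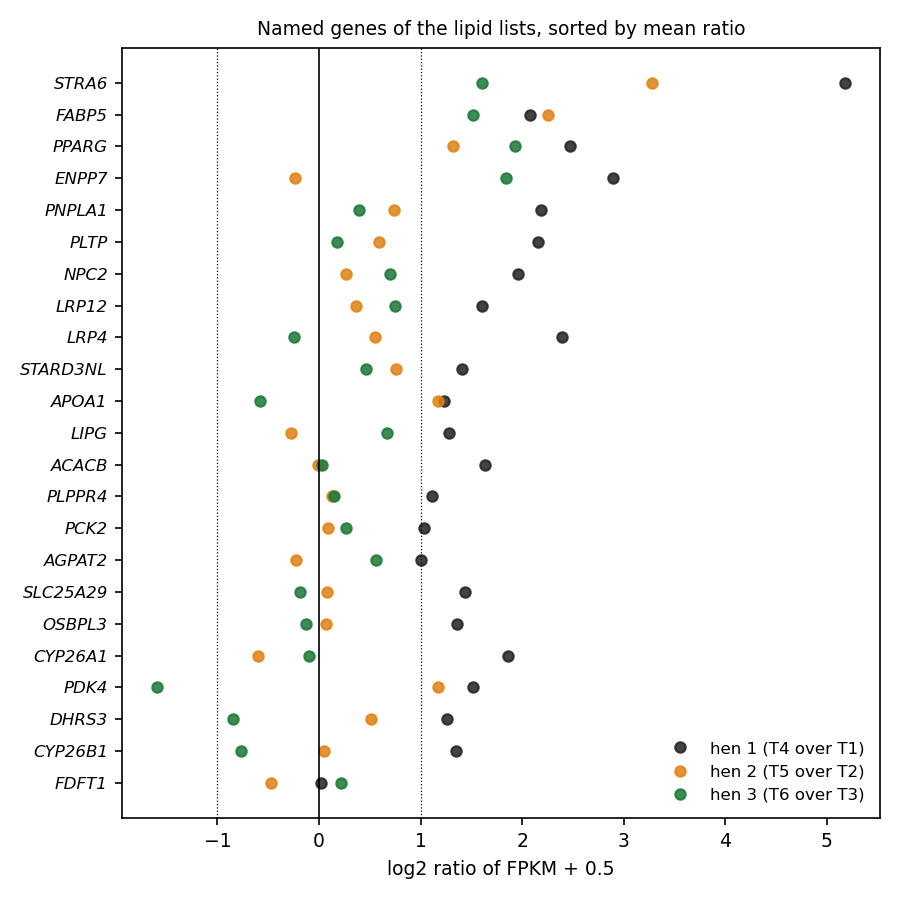
Log2 ratio of FPKM + 0.5 in hens 1, 2 and 3 for the 23 matched genes of the lipid lists, sorted by mean ratio, with dotted lines at 2-fold in either direction. *STRA6*, *FABP5* and *PPARG* are at least 2-fold higher in each hen, while most other genes, *ACACB* included, are so in hen 1 alone.

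Among 252 named genes with at least 5 FPKM in 1 follicle, the profile most like that of *PPARG* over the 6 follicles was that of *SMAD2*, a signal transducer of activin receptors (r = 0.99). *SMAD2* had 709, 169 and 299 FPKM in T4, T5 and T6, against 96.9, 70.7 and 75.5 FPKM in T1, T2 and T3. *RALB*, *PHOSPHO1*, *TRPM7* and the transferrin receptor gene *TFRC* followed, with r from 0.98 to 0.99. For *FABP5* the closest was the actin gene *ACTA1* (r = 0.98), with 235, 193 and 391 FPKM in T4, T5 and T6, against 88.1, 59.3 and 216 FPKM in T1, T2 and T3. *AADAC*, an arylacetamide deacetylase, had r = 0.94, and *HTR7* and *ID2* each had r = 0.90. For *ACACB* the closest were the semaphorin gene *SEMA6D* and the clock gene *PER2* (both r = 0.97), then *SLC25A29*, the glycogen phosphorylase gene *PYGB* and *PCK2*. These likenesses rest on 6 follicles, and 2, 8 and 6 of the other 12380 genes were closer to *PPARG*, *FABP5* and *ACACB* than the first gene named for each. All named genes came from the T1 and T4 list, so a shared difference between T4 and T1 was favoured by that choice.

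The deposited units gave the same picture, apart from small shifts. Taken without a pseudocount, the *ACACB* ratio in FPKM and that in normalized counts differed by less than 0.01 on the log2 scale in each hen. For *PPARG* the FPKM per 1000 normalized counts was 22.5 to 26.4 in T4 to T6 and 20.7 to 27.2 in T1 to T3, and lowest in both follicles of hen 2. For *FABP5* it was 313.5 to 331.6 in T4 to T6 and 308.7 to 317.3 in T1 to T3.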

How the data were processed

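Poly(A) RNA of 6 follicles was sequenced by the authors on an Illumina HiSeq instrument, 1 library per follicle, after extraction with TRIzol by the paper or a tissue RNA kit by the labels. The submitters' notes name Bowtie 0.12.2 and Cufflinks. The builds named conflict (mm8 in the notes, a chicken assembly in the paper). The authors deposited 1 table with FPKM and normalized counts, a signal scaled by 1 factor per library. Of low normalized counts (under 20), 90.7% to 91.7% were whole multiples of a step within 0.02, which puts depth at 12554874 to 13933279 fragments per follicle. The rest were fractions, so no count model was fitted. Counting intervals took the estimated fragments, rounded to whole numbers, as counts. There was 1 column of values that names no sample, and it was not used. A line repeating the column names was dropped.

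limma 3.58.1 (R 4.3.3; lmFit, eBayes with trend and robust) was fitted to log2(FPKM + 0.5) over the 12381 genes that reached 1 FPKM in 3 or more follicles, with hen as a block, Benjamini-Hochberg adjustment and a limit of 0.05. The pseudocount understates ratios of low genes. The pairing comes from the paper. Deviations from group means correlated at 0.43, 0.18 and 0.53 within hens 1, 2 and 3, and at -0.46 to 0.18 between hens. The value of hen 2 was matched by that of T4 with T2, from different hens, so the pairing of hen 2 is not borne out by these values. Each follicle is a separate sample of 1 of 3 hens. The fit was also run on simulated data, with an outcome that is not reported here. The rest was done in Python 3.11.15 (scipy 1.17.1, pandas 2.3.3, numpy 2.4.6).

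Gene names came from the study's list of genes changed between T1 and T4, a part of which was read (822 entries, 301 names kept, 12 by description). The genes, lists and tests were chosen with earlier results of these data known. Named were the 3 genes, *FSHR*, every matched lipid gene, markers as lists with examples, and for each gene the 5 named genes most like it by Pearson r, of which 1 is not reported here. Markers named singly are examples chosen after their values were seen. The authors' own fold changes were not used. A planned motif search in promoters was not run, as no sequence was at hand. Alternatives were pseudocounts of 0.1 and 1, median-of-ratios scaling, no filter, a filter at 5 FPKM, eBayes without trend and robust, normalized counts with a pseudocount of 10, no block, and leaving out each hen.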

Additional observations from a re-analysis of the deposited data

How the results depend on the processing

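The mean log2 ratios kept their sign under every alternative run. With each hen left out in turn, *PPARG* ranged over 1.62 to 2.20 and *FABP5* over 1.80 to 2.17, and *ACACB* over 0.01 to 0.83. Their limma adjusted p ranged over 4.0e-12 to 0.999 for *PPARG*, 8.0e-14 to 0.999 for *FABP5* and 0.742 to 0.999 for *ACACB*. *PPARG* and *FABP5* passed the limit only without hen 1, and the genes called then numbered 466, against 0 without hen 2 or without hen 3. Added after the data were seen, the fit without hen 1 called 125 genes without robust (*PPARG* 1.62, *FABP5* 1.89) and 21 without trend and robust, where *FABP5* (1.89) passed and *PPARG* did not. The cause was not tested. Without the replicate block no call changed (0 genes), while the standard error was 0.41 for *PPARG* and 0.93 for *FABP5*, whose level differs between hens. *ACACB* did not pass the filter at 5 FPKM and has no value there. All 36 recomputed values within hens stayed within the counting interval's half-width, which is wide for *FABP5*: with normalized counts and a pseudocount of 10 its log2 ratio was 1.59, 1.31 and 1.29 in hens 1, 2 and 3, against 2.08, 2.26 and 1.52 as reported. *ACACB* stayed between -0.01 and 0.04 in hens 2 and 3, on either side of 0.

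The precision is set by 1 follicle per group and hen, 3 hens in all, and for *FABP5* also by depth, since 4 fragments stand behind T2. A difference within the counting intervals was not detectable at this depth. With 20 of 246 list genes matched through a list of changed genes, lipid genes that did not change between T1 and T4 were mostly not analysed here.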
